A study of Homo sapiens with 24 samples.

Results

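The 407 miRNAs described here are the named human miRNAs with a mean of at least 10 RPM over 6 small RNA libraries of A549 cells: control and CAF conditioned medium at 24, 48 and 72 h. RPM are reads assigned to a miRNA, scaled to a common total of miRNA reads in each library. The table held 2582 miRNAs, 2303 named and 279 predicted by the authors, and 1896 named miRNAs lay below the mean of 10 RPM. Just inside that limit were miR-200a-3p with a mean of 10.05 RPM and miR-100-3p with 10.14 RPM, and just outside were miR-129-1-3p with 9.93 RPM and miR-3144-3p with 9.70 RPM. Of the 407 miRNAs, 0 passed the test of the late medium effect (limma, adjusted p under 0.05), so all values of miRNAs given here are descriptions of 3 pairs of libraries.

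A549 is an established human lung adenocarcinoma line, and all groups are unmodified A549 cells that differ in medium and time only. The labels do not say what CAF means, which in tumour biology is commonly short for cancer-associated fibroblast, and they name neither the source of the conditioned medium nor that of the control medium. Cells were also collected at 3, 6 and 12 h, and polyadenylated RNA was sequenced at the same times, with 1 library per assay, medium and time. The study describes 2 biological replicates of each sample, but each medium and time has a single column of values. The 3 late times therefore stood as the replicates of the medium effect. The p-values measure only the spread between pairs of libraries, those at 3 to 12 h included, part of which may be technical. In the mRNA libraries at 24 to 72 h the epithelial keratins KRT8 (1265 to 2161 RPKM, mapped reads scaled to gene length and library size) and KRT18 (677 to 1031 RPKM) were high, while SFTPC, surfactant protein C of alveolar type II cells, was at most 0.15 RPKM.

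miRNAs are small RNAs cut from hairpin transcripts, first by Drosha in the nucleus and then by Dicer in the cytoplasm. One strand, from the 5p or the 3p arm of the hairpin, is loaded onto an Argonaute protein and pairs through its seed, the bases near its 5′ end, with target mRNAs, which are then repressed or degraded. miRNAs that share a seed form a family with overlapping targets. Cells also release miRNAs in vesicles and protein complexes and can take them up from medium.

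The late libraries held 0.868 to 2.68 M miRNA reads, and the CAF medium library at 48 h was the shallowest. The control library at 48 h stood apart from the other 5. Predicted miRNAs took 49.1% of its reads against 26.2 to 33.9% in the others, and miR-21-5p took 20.5% against 27.4 to 35.2%. Since RPM share a common total, named miRNAs take a smaller part of it in that library. The values were therefore also rescaled to the reads of named miRNAs alone, by TMM factors, by median centring and by quantiles, which with the deposited values makes 5 scalings. The scale of named miRNAs alone moved the median late difference of the 407 miRNAs from 0.12 to -0.04 on the log2 scale, a shift of -0.16, and the share with a positive difference from 62.9 to 43.5%.

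The mature sequences that the results turn on are shown here in 3 sets, 5′ to 3′, from RefSeq for GRCh38.p14, with the seed (bases 2 to 8) in capitals. RefSeq entries were matched for 367 of the 407 miRNAs. The first set holds the miRNAs of fibroblasts and other mesenchymal cells, among them the 3 with the largest late differences. miR-199a-3p and miR-199b-3p have the same mature sequence, so their reads cannot be told apart, and the table gives them identical values. miR-199a-5p and miR-199a-3p come from hairpins on chromosomes 1 and 19, miR-199b-3p from chromosome 9, and miR-143-3p and miR-145-5p from neighbouring hairpins on chromosome 5.
miR-199a-5p: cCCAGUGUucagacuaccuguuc
miR-199a-3p: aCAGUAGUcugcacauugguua
miR-199b-3p: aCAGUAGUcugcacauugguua
miR-143-3p: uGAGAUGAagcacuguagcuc
miR-145-5p: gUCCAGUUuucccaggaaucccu

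The second set holds the 2 seed families with the highest median difference among the 12 seeds shared by at least 3 of the miRNAs. They are the miR-29 family, known for repressing collagen and other matrix mRNAs, and the miR-15 and miR-16 family, known for repressing cyclins and BCL2.
miR-29a-3p: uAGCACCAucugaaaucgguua
miR-29b-3p: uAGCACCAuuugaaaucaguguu
miR-29c-3p: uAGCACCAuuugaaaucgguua
miR-15a-5p: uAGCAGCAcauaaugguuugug
miR-15b-5p: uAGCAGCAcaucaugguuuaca
miR-16-5p: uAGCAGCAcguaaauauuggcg
miR-195-5p: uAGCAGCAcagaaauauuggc
miR-424-5p: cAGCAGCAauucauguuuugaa

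The third set holds the only 2 miRNAs of the 407 with all 3 CAF medium values below all 3 control values, and the one seed family of at least 3 in which every member had a negative late difference. One of the 2, miR-33b-3p, reached 10 RPM only through its control values.
miR-2115-3p: cAUCAGAAuucauggaggcuag
miR-33b-3p: cAGUGCCUcggcagugcagccc
miR-99a-5p: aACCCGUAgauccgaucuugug
miR-99b-5p: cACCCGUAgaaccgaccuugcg
miR-100-5p: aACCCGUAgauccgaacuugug

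The test compared CAF medium with control at the same time on the scale log2(RPM + 1), in one limma fit of all 12 small RNA libraries. The smallest adjusted p was 0.451, adjusted over 474 miRNAs, which are the 407 and 67 predicted ones (0% of them called). At an unadjusted limma p under 0.05 there were 20 of the 407 higher in CAF medium and 4 lower, against 4.64 and 2.11% of the 474. edgeR on the reads recovered from the RPM values called 0 (0% of the 474), with 13 of the 407 higher and 7 lower at an unadjusted p under 0.05, against 2.95 and 3.16% of the 474. DESeq2 on the same reads called 2 of the 474 (0.422%), 1 of them among the 407, miR-199a-5p (log2 difference 3.40, adjusted p = 0.0207).

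All 3 CAF medium values lay above all 3 control values for 26 of the 407 miRNAs (6.54% of the 474), and below them for 2 (0.844%). The 26 include miR-199a-5p, miR-195-5p, miR-15b-5p, miR-424-5p, let-7c-5p, miR-126-5p and miR-375. Among the 26, members such as miR-199a-5p and miR-193a-5p reached 10 RPM only through their CAF medium values. Among the 2, miR-33b-3p did so only through its control values. The limit fixes the direction of such members, so neither count is support for a change. Set against the control of the same time, 102 were higher at each of 24, 48 and 72 h (24.3% of the 474) and 41 were lower at each (11.2%). These shares of the 407 are close to those of all miRNAs tested. The median late difference was 0.12 over the 407 and 0.12 over the 474.

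**Figure D1:**
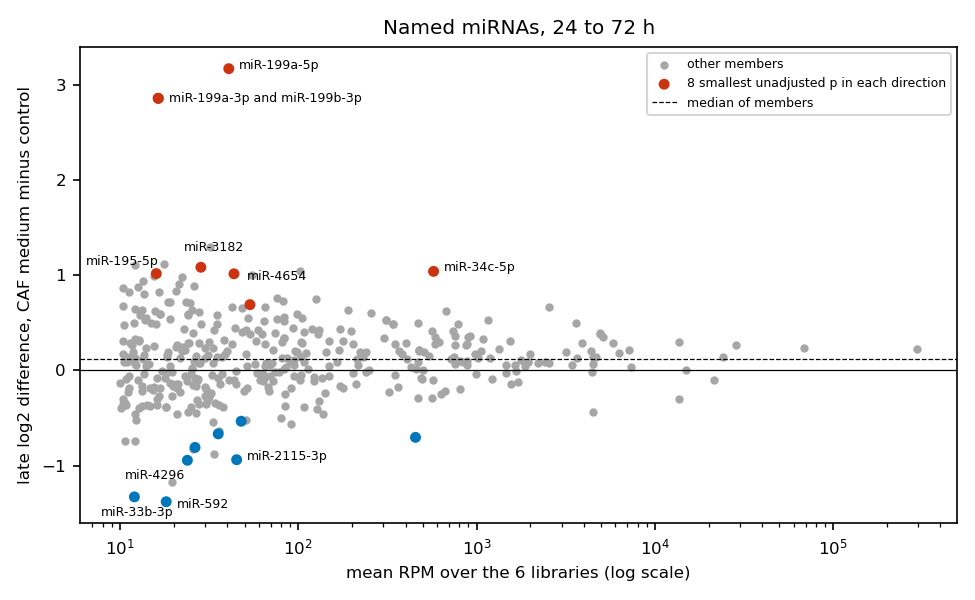
Late log2 difference between CAF and control medium (vertical axis, log2(RPM + 1)) against mean RPM over the 6 late libraries (horizontal axis, log scale), 1 point per miRNA (407). Coloured points are the 8 with the smallest unadjusted p in each direction, the dashed line is the median of 0.12, and the 3 points near 3 are miR-199a-5p, miR-199a-3p and miR-199b-3p, the last 2 drawn on top of each other.

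miR-199a-5p, a miRNA typical of fibroblasts and other mesenchymal cells, had the largest late difference of the 407. Control cells had 2.99, 3.17 and 6.72 RPM at 24, 48 and 72 h, and CAF medium cells had 8.98, 54.2 and 169 RPM. The groups did not overlap, and the CAF medium values differed more between times than the control values did. These values rest on 8, 5 and 11 reads in control and on 15, 47 and 286 reads in CAF medium. The ratio was 3.00 at 24 h (95% counting interval 1.20 to 8.18), 17.1 at 48 h (6.82 to 55.0) and 25.1 at 72 h (13.8 to 50.8). The intervals cover counting error only. The late difference was 3.17 ± 0.86 on the log2 scale, with an adjusted limma p of 0.451. The SE after ±, here and below, comes from the limma fit of all 12 libraries. It therefore also rests on the spread of the early pairs, and is not the SE of the 3 late pairs alone. The late difference of miR-199a-5p was 3.10 on the scale of named miRNAs alone and 2.89 without the 48 h pair. miR-199a-5p was the only miRNA of the 407 with a difference of at least 1 in the same direction at each late time (0.211% of the 474 higher, and 0% lower).

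The opposite arm followed the same course at lower level. miR-199a-3p, with miR-199b-3p at identical values, stood at 2.62, 0 and 4.28 RPM in control and at 3.59, 23.04 and 64.9 RPM in CAF medium. The groups overlapped, since the 24 h value in CAF medium lay below the 72 h control value. At 24 h the 2 media had 7 and 6 reads, a ratio of 1.37 (counting interval 0.381 to 4.77). At 48 h control had 0 reads and CAF medium 20, with a counting interval of the ratio from 8.97 upward. Against a floor of 3 reads in that control library the ratio was 12.1, which leaves out counting error. At 72 h the ratio was 15.2 (7.12 to 38.6). The late difference was 2.86 ± 0.87. Its adjusted p was 0.568 (limma).

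The other miRNAs of the fibroblast list showed smaller differences. miR-145-5p, of smooth muscle and fibroblasts, was at 4.49, 14.6 and 26.3 RPM in control and at 9.58, 30.0 and 38.9 RPM in CAF medium. It was higher in CAF medium at each of the 3 late and 3 early times, although the groups overlapped across times, with a late difference of 0.83 ± 0.29 and an early one of 1.09. miR-143-3p, its cluster partner, was at 81.9, 190 and 186 RPM in control and at 178, 225 and 275 RPM in CAF medium, with overlap across times and a late difference of 0.64 ± 0.32. Of the 10 miRNAs of this list in the table, 5 reached 10 RPM, with positive late differences under each of the 5 scalings and a median of 2.86. The miR-199a and miR-199b members reached 10 RPM only through their CAF medium values, which fixes the sign of their differences, so neither the count nor the median is support for a change of the list. That median was 0.83 among members with a mean of at least 10 RPM over all 12 libraries, 0.64 among members with a mean of at least 50 RPM, which leaves miR-143-3p alone, and 1.84 with the identical pair counted once.

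The other 5 miRNAs of the list lay below 10 RPM, at 0 to 8.88 RPM in the 6 late libraries. Among them miR-214-3p, which is cut from the same transcript as the chromosome 1 copy of miR-199a, was at 0.37, 1.27 and 1.22 RPM in control and at 1.80, 3.46 and 5.31 RPM in CAF medium. miR-143-5p was also higher at each time, while miR-199b-5p was at 0 in both media at 48 h, miR-145-3p was lower at 48 h (8.88 against 8.06 RPM) and miR-214-5p was lower at 24 h (0.37 against 0 RPM). The summed level of the 5 miRNAs above 10 RPM was 94.6 to 228 RPM in control and 204 to 612 RPM in CAF medium. This sum enters the same reads for both miR-199a-3p and miR-199b-3p. It also holds members that reached 10 RPM only through CAF medium, so it is not support for a change of the list. DNM3OS, the transcript that holds miR-214 and the chromosome 1 copy of miR-199a, was at 0 RPKM in the 3 control mRNA libraries and at most 0.01 RPKM in the CAF medium libraries. Of 13 fibroblast mRNAs, chosen with values in view, 6 were at no more than 1 RPKM in all 6 late libraries, among them COL1A2 (at most 0.12 RPKM), COL3A1 (0.16), POSTN (0.11) and PDGFRB (0.07). The other 7 were expressed, with ACTA2 at 8.62 to 15.5 RPKM, TAGLN at 3.99 to 28.3, FBN1 at 3.54 to 5.36, FAP at 2.06 to 4.71, COL1A1 at 2.45 to 4.31, THY1 at 0.17 to 2.22 and LUM at 0.59 to 1.43 RPKM. These 7 had a mean of at least 1 RPKM and 0 were called (limma, with 4.19% of 12206 mRNAs called). THY1 was higher in CAF medium in each pair (0.76 ± 0.24, adjusted p = 0.0988) and TAGLN lower in each (-0.77 ± 0.20, adjusted p = 0.0516). The 13 summed to 36.5 to 47.3 RPKM in control and to 33.2 to 44.6 RPKM in CAF medium. In bulk RNA, fewer cells with a miRNA and less of it per cell cannot be told apart, and whether miR-199a was made in the A549 cells or came with the medium was not tested.

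**Figure D2:**
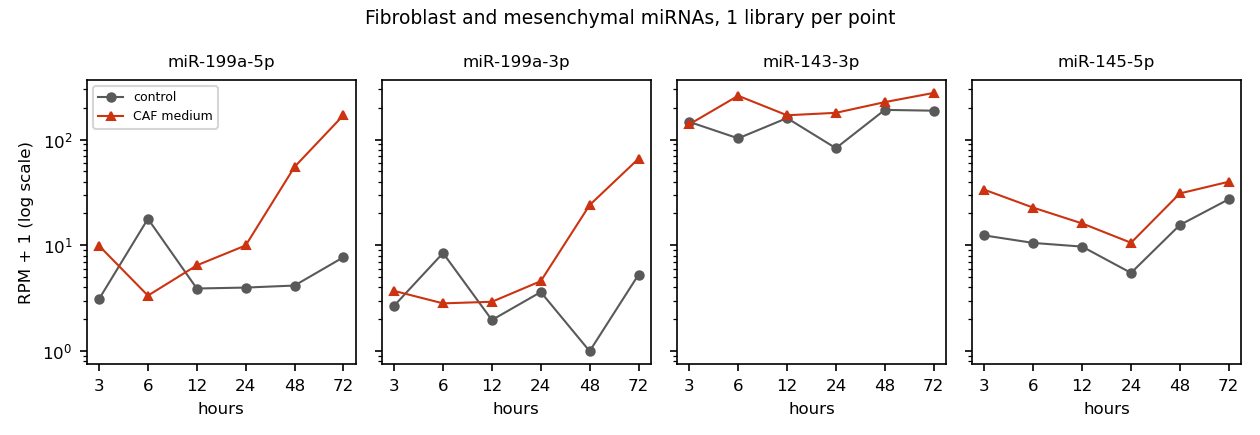
RPM + 1 (log axis) of miR-199a-5p, miR-199a-3p, miR-143-3p and miR-145-5p by hours in control (circles) and CAF medium (triangles), 1 library per point. The media cross for miR-199a-5p between 3 and 12 h and part from 24 h to 72 h, where control has 6.72 and CAF medium 169 RPM.

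At the early times miR-199a-5p did not differ in one direction. It went from 2.11 RPM in control to 8.91 RPM in CAF medium at 3 h, from 16.8 to 2.35 at 6 h and from 2.91 to 5.47 at 12 h. The control library at 6 h was thus above the CAF medium library at 24 h. The late minus the early effect was 3.17, with an adjusted limma p of 0.881.

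Among abundant miRNAs the largest late difference was that of miR-34c-5p, of a family induced by p53 and known for repressing cell cycle mRNAs. It was at 235, 334 and 504 RPM in control and at 490, 516 and 1364 RPM in CAF medium. Each pair was higher in CAF medium, while the 24 h value in CAF medium lay below the 72 h control value, so the groups overlapped. The ratios were 2.08, 1.55 and 2.71 at 24, 48 and 72 h, with counting intervals of 1.88 to 2.31, 1.36 to 1.76 and 2.50 to 2.94. The late difference was 1.04 ± 0.25, with an adjusted p of 0.451 (limma), and it was 0.87 on the scale of named miRNAs alone. The early effect was 0.71, and miR-34c-5p was higher in CAF medium at all 6 times. The related miR-34a-5p was at 424, 247 and 500 RPM in control and at 524, 391 and 716 RPM in CAF medium, with a late difference of 0.49 ± 0.30.

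The other miRNAs among the 8 with the smallest p on the higher side were lower in level. miR-195-5p, of the miR-15 and miR-16 seed family, was at 6.35, 13.3 and 11.6 RPM in control and at 17.96, 19.6 and 27.1 RPM in CAF medium. The groups did not overlap, and the late difference was 1.02 ± 0.32. miR-379-5p, of the imprinted DLK1-DIO3 cluster on chromosome 14, was at 49.0, 29.8 and 45.2 RPM in control and at 68.3, 65.7 and 63.7 RPM in CAF medium, again without overlap (0.69 ± 0.23). miR-4654 was at 28.0, 33.6 and 22.6 RPM against 47.3, 83.0 and 47.2 RPM (1.01 ± 0.29), and its early effect was as large, at 1.11. miR-3182 is on the list of names that lie in other noncoding RNAs. It was at 19.1, 31.7 and 7.33 RPM in control and at 34.7, 50.7 and 27.1 RPM in CAF medium (1.08 ± 0.29), with overlap across times. The adjusted limma p of these 4 was 0.451 to 0.66.

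On the lower side, miR-2115-3p was at 70.6, 59.0 and 48.3 RPM in control and at 38.3, 33.4 and 21.2 RPM in CAF medium. The groups did not overlap, and the pairs agreed in size, with ratios of 0.542, 0.567 and 0.44. The late difference was -0.94 ± 0.22, the smallest unadjusted p of the 407 (limma, 0.00278, adjusted p = 0.451). miR-33b-3p, whose hairpin lies in an intron of the cholesterol regulator SREBF1, was at 29.2, 13.3 and 11.6 RPM in control and at 6.59, 6.91 and 4.72 RPM in CAF medium, also without overlap. Its late difference was -1.33 ± 0.33, and its ratio of 0.519 at 48 h rested on 21 and 6 reads (counting interval 0.171 to 1.33). The mean of miR-33b-3p reached 10 RPM only through its control values. This fixes the sign of its difference, so neither the sign nor the lack of overlap is support for a change.

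The other 6 on the lower side were less even between times. miR-592 was at 35.9, 22.8 and 15.9 RPM in control and at 22.2, 2.30 and 10.0 RPM in CAF medium, lower in each pair (-1.38 ± 0.57, and -0.64 without the 48 h pair). miR-3529-3p, the most abundant of them, was lower at 24 and 48 h and slightly higher at 72 h, with 983, 495 and 248 RPM in control and 541, 189 and 272 RPM in CAF medium (-0.70 ± 0.31). miR-613 was lower by over 1 at 24 and 48 h and level at 72 h (19.6 against 19.5 RPM). miR-331-5p was lower in each pair, with 50.5, 19.02 and 62.3 RPM in control and 46.1, 14.98 and 20.6 RPM in CAF medium (-0.67 ± 0.31), but without the 72 h pair its difference was -0.23. miR-4296 was higher at 24 h and lower at 48 and 72 h, with 24.3, 43.8 and 24.4 RPM against 29.9, 11.5 and 9.43 RPM (-0.94 ± 0.41, and -0.50 to -1.56 with 1 pair left out). miR-125a-3p went the same way, with 54.2, 50.1 and 63.5 RPM against 56.9, 29.95 and 32.4 RPM (-0.53 ± 0.26, and -0.33 to -0.84 with 1 pair left out). All 16 miRNAs kept their sign under each of the 5 scalings, which is not support, since they were chosen by their p in these same data.

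**Figure D3:**
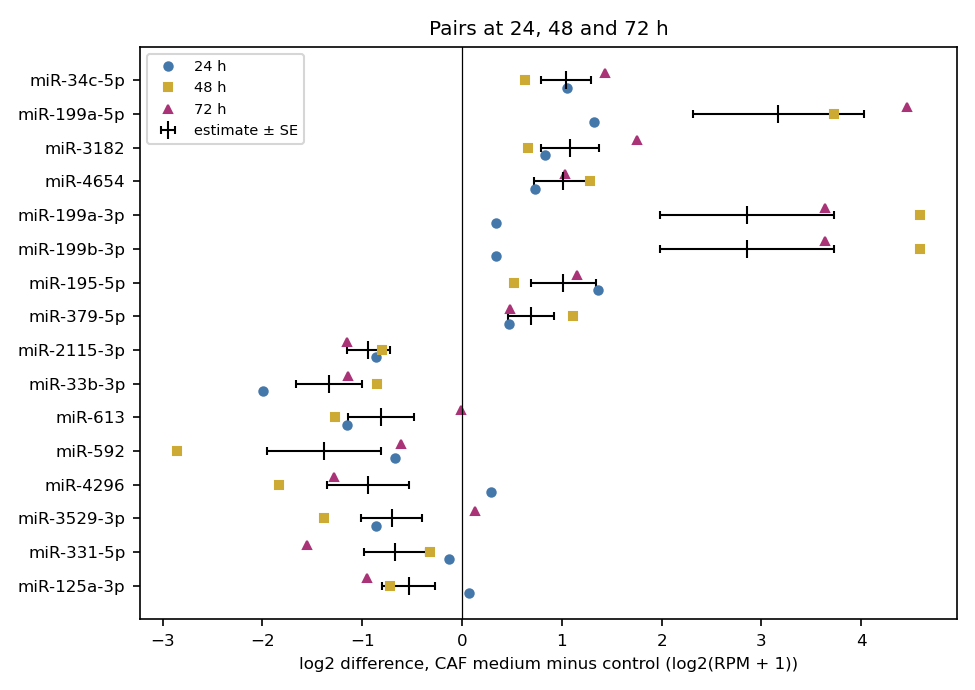
Log2 difference, CAF medium minus control (horizontal axis, log2(RPM + 1)), at 24 h (circles), 48 h (squares) and 72 h (triangles) for the 8 miRNAs with the smallest unadjusted p in each direction, with the fitted late difference and its SE (black). The pairs of miR-2115-3p lie close together, while those of miR-199a-5p run from 1.32 to 4.46.

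The most abundant miRNAs showed small differences. miR-21-5p, an abundant miRNA of many carcinomas, was at 297800, 204900 and 323450 RPM in control and at 273920, 323800 and 351600 RPM in CAF medium, with a late difference of 0.22 ± 0.21. The low value is that of the 48 h control library, and the groups overlapped. miR-21-5p was lower in CAF medium at 24 h and higher at 72 h by a similar amount, so that without the 48 h pair the difference was -7.3e-05, and on the scale of named miRNAs alone it was 0.05. The next in level, miR-27b-3p, miR-27a-3p, miR-22-3p and miR-100-5p, had late differences of 0.24, 0.26, 0.14 and -0.10. That of miR-22-3p was -0.03 on the scale of named miRNAs alone, and that of miR-100-5p was 0.11 without the 48 h pair. miR-21-3p was lower in each late pair and higher in each early pair, with late and early effects of -0.30 and 0.06.

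The miR-29 family had positive late differences for all 6 members that reached 10 RPM, with a median of 0.58 beside 0.12 for the 407. Of these, miR-29b-1-5p (0.67) and miR-29c-5p (0.82) had means of 10.4 and 11.2 RPM, close to the limit. A mean that reaches the limit only through CAF medium values has its sign fixed, so the count of 6 is not support. The 3 members with the seed AGCACCA had a median of 0.52. miR-29b-3p was at 457, 339 and 874 RPM in control and at 841, 709 and 837 RPM in CAF medium (0.63 ± 0.40). It was higher at 24 and 48 h and slightly lower at 72 h, so the groups overlapped. miR-29a-3p, the most abundant, was at 16085, 10197 and 10623 RPM in control and at 15535, 12093 and 17414 RPM in CAF medium (0.30 ± 0.19). miR-29c-3p was at 246, 148 and 409 RPM against 340, 307 and 426 RPM (0.52 ± 0.40). On the scale of named miRNAs alone the median of the family was 0.41, and 5 of 6 were positive. Without the 48 h pair it was 0.33. 0 of the 6 had an unadjusted limma p under 0.05, and the early median was -0.15.

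In the family of miR-15, miR-16, miR-195 and miR-424, 8 of 9 members were positive, with a median of 0.36 (0.19 on the scale of named miRNAs alone, with 6 of 9 positive). All 5 with the seed AGCAGCA were positive under that scaling too, with a median of 0.49 as deposited and 0.32 so scaled. miR-15b-5p was at 743, 486 and 739 RPM in control and at 994, 790 and 941 RPM in CAF medium, without overlap (0.49 ± 0.20). miR-424-5p was at 2436, 1121 and 2558 RPM in control and at 3187, 2736 and 3169 RPM in CAF medium, also without overlap (0.66 ± 0.40). miR-16-5p was higher in each pair (4717, 3126 and 5178 against 6414, 4782 and 5472 RPM), although the CAF medium value at 48 h lay below the 72 h control value. The ninth member, miR-503-5p, from the same cluster as miR-424 on chromosome X, had -0.10.

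Other lists kept the sign of their median under all 5 scalings. miR-193 and miR-365 (6 of 7 positive, median 0.48), miR-130, miR-301 and miR-454 (5 of 6, 0.33), the chromosome X cluster of miR-500 and miR-660 (7 of 9, 0.29) and miR-23, miR-24 and miR-27 (7 of 10, 0.23) were positive. The miR-193 list counts miR-365a-3p and miR-365b-3p, which have identical values, as 2 members. Its median of 0.48 is the value of that pair. The miR-193 list held miR-193a-5p, at 8.60, 9.51 and 7.33 RPM in control and at 13.2, 13.8 and 23.6 RPM in CAF medium, without overlap (0.87 ± 0.36). That miRNA reached 10 RPM only through its CAF medium values, which fixes the sign of its difference. Without the 48 h pair the medians of the miR-193 and miR-130 lists were 0.19 and -0.002. The miR-181 list (4 of 6 negative, median -0.14) and the miR-10, miR-99, miR-100 and miR-125 list (7 of 12 negative, -0.04) were negative. In the latter, miR-10b-5p was higher in each pair, at 66.5, 81.2 and 127 RPM in control and at 92.8, 149 and 239 RPM in CAF medium (0.75 ± 0.35). The 3 members with the seed ACCCGUA were all negative, with -0.03 for miR-99a-5p, -0.10 for miR-100-5p and -0.44 for miR-99b-5p. The 48 h pair carried these values for miR-99a-5p and miR-100-5p, which had -0.35 and -0.52 at 48 h but 0.18 and 0.26 at 72 h.

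The miR-200 family, which maintains the epithelial state by repressing ZEB1 and ZEB2, was low. Its 4 members that reached 10 RPM summed to 49.5 to 126 RPM in control and to 54.1 to 121 RPM in CAF medium, and 3 of 4 were negative, with a median of -0.13. miR-200c-3p was at 26.2, 18.4 and 42.2 RPM in control and at 17.4, 17.3 and 29.5 RPM in CAF medium (-0.38 ± 0.30). miR-200b-3p went the other way, at 3.74, 5.07 and 11 RPM against 10.2, 5.76 and 26.5 RPM (0.86 ± 0.41). Its difference at 48 h was small, and the groups overlapped. The mean of miR-200b-3p reached 10 RPM only through its CAF medium values, which fixes the sign of its difference.

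For let-7, miR-17-92, miR-30, miR-210, miR-183, miR-26, miR-103, miR-132, miR-224, miR-320, miR-548, the chromosome 14 cluster and names that lie in other noncoding RNAs, the median late difference was between 0.01 and 0.14 and changed sign or reached 0 under at least 1 scaling. In let-7, whose members repress RAS and HMGA2 mRNAs, 11 of 15 were positive as deposited (median 0.13) and 7 of 15 on the scale of named miRNAs alone (-0.04). let-7c-5p stood out from the list, at 59.8, 47.6 and 60.5 RPM in control and at 86.2, 78.3 and 126 RPM in CAF medium, without overlap (0.76 ± 0.28). In the miR-17-92 list, 14 of 16 were positive as deposited and 7 of 16 so scaled. miR-210-3p, the miRNA most tied to hypoxia, was at 1188, 441 and 651 RPM in control and at 957, 778 and 524 RPM in CAF medium (0.06 ± 0.38), lower in 2 pairs and higher in the 48 h pair.

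**Figure D4:**
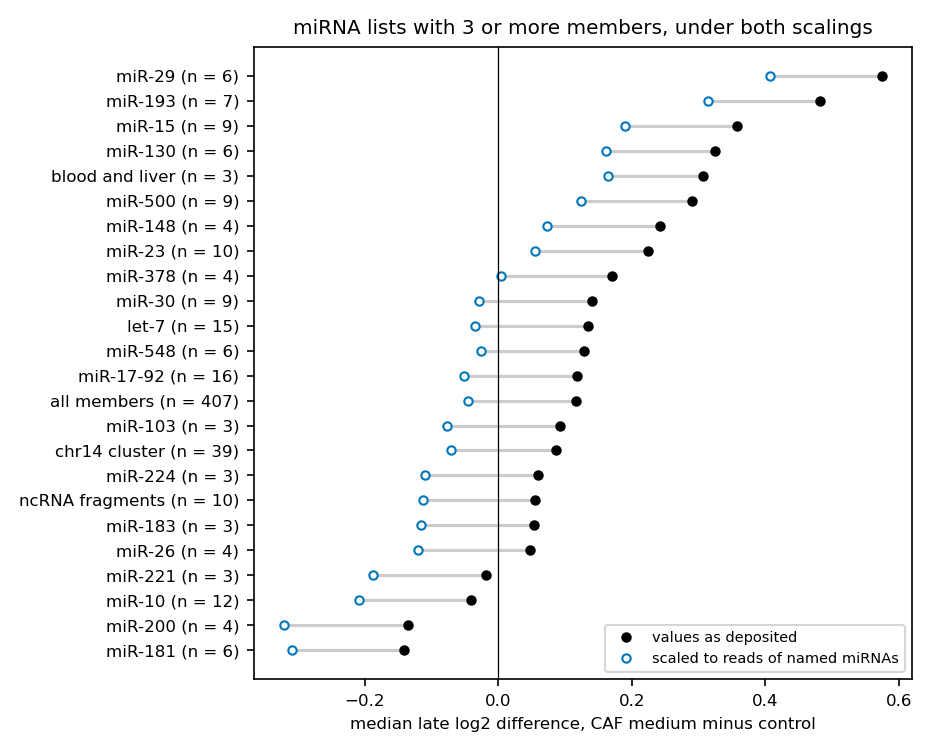
Median late log2 difference (horizontal axis) of each miRNA list with at least 3 members, with the values as deposited (filled) and on the scale of named miRNAs alone (open). The miR-29, miR-193 and miR-15 lists lie at 0.58, 0.48 and 0.36 as deposited and at 0.41, 0.31 and 0.19 under the other scaling, and the fibroblast list (2.86) lies outside the axis and is not drawn.

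miRNAs of inflammation, blood and other epithelia were measured as well. miR-146a-5p, which is induced by NF-kB, was at 487, 874 and 1380 RPM in control and at 733, 969 and 2470 RPM in CAF medium (0.53 ± 0.23), and it was higher in CAF medium at all 6 times. Of 15 miRNAs of blood cells, endothelium and liver in the table, 3 reached 10 RPM, and they summed to 422 to 685 RPM in control and to 635 to 826 RPM in CAF medium. miR-126-5p, of endothelial cells, was at 237, 140 and 242 RPM in control and at 352, 243 and 328 RPM in CAF medium, without overlap (0.60 ± 0.21). miR-375, of secretory and neuroendocrine cells, was at 14.6, 13.95 and 26.9 RPM in control and at 30.5, 30.0 and 41.3 RPM in CAF medium, without overlap (0.89 ± 0.36). The part of other cells or of the medium in these values was not tested.

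Both arms reached 10 RPM for 90 hairpins, and the late differences of the 2 arms had the same sign for 52 of them (57.8%). The correlation between arms across hairpins was r = 0.52, and r = 0.11 without miR-199a, as a description of values that share libraries. The widest gap was that of miR-2355, with 0.19 for the 5p and -1.17 for the 3p arm. The 3p arm had 30.4 RPM in control and 2.30 RPM in CAF medium at 48 h. For miR-140, whose arms had means of 131 and 137 RPM, the 5p arm was higher in each pair (0.42 ± 0.32) and the 3p arm lower in each pair (-0.46 ± 0.34). miR-140-5p was at 133, 59.6 and 156 RPM in control and at 159, 118 and 161 RPM in CAF medium, and miR-140-3p at 183, 162 and 130 RPM against 146, 105 and 96.1 RPM. Over the 367 matched miRNAs, GC content and the late difference correlated at r = -0.11 and Spearman's rho = -0.155, as a description. The median late difference was 0.17 in the 137 with the lowest GC content, 0.13 in the 116 in the middle and 0.04 in the 114 with the highest.

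At single times, which have no replicate, 27 of the 407 miRNAs were higher by at least 1 at 24 h (7.38% of the 474) and 7 lower (1.69%). At 48 h the numbers were 45 (11%) and 35 (10.1%), and at 72 h 34 (9.7%) and 13 (4.01%). The spread of the differences was widest at 48 h, with an SD over the 407 of 0.90 beside 0.57 at 24 h and 0.69 at 72 h, and the 48 h pair held the shallowest library and the control library that stood apart.

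The late effect was also set against that at 3 to 12 h. None of the 407 passed the test of the difference (limma, smallest adjusted p = 0.881, 0% of the 474), and 16 had an unadjusted p under 0.05 (4.01% of the 474). The same direction at all 6 times was seen for 30 miRNAs, 16 higher and 14 lower in CAF medium, among them miR-34c-5p, miR-145-5p, miR-4654 and miR-146a-5p on the higher and miR-2115-3p and miR-33b-3p on the lower side. Opposite directions, with 3 early pairs one way and 3 late pairs the other, were seen for 7. One of these, miR-31-5p, was lower by 0.27, 0.68 and 0.17 at 3, 6 and 12 h and higher by 0.26, 0.44 and 0.16 at 24, 48 and 72 h. The counts of 30 and 7 were not set against the share over the 474, and are descriptions, not a result about the 407. Across the 407, the early and late effects correlated at r = 0.18.

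The mRNA libraries of the same cells gave the genes that hold the miRNAs. Of 73 host genes listed, 61 had a mean of at least 1 RPKM, and 2 rose and 2 fell at 24 to 72 h (limma, adjusted p under 0.05, against 4.19% of 12206 genes called). MCM7, a subunit of the replicative helicase that holds miR-106b, miR-93 and miR-25 in an intron, was at 49.5, 37.5 and 25.03 RPKM in control and at 31.1, 15.9 and 16.3 RPKM in CAF medium, and fell by 0.83 ± 0.15 (adjusted p = 0.0141). Of its 5 miRNAs, 4 had positive differences (0.04 to 0.33) and miR-93-3p had -0.27, with unadjusted limma p of 0.342 to 0.797. These signs are of the values as deposited. In the miR-17-92 list, which holds these 5, 14 of 16 were positive as deposited and 7 of 16 on the scale of named miRNAs alone. SMC4, a condensin subunit that holds miR-15b and one copy of miR-16, was at 95.6, 72.6 and 57.8 RPKM against 67.4, 44.1 and 33.3 RPKM, and fell by 0.67 ± 0.15 (adjusted p = 0.0329), while miR-15b-5p and miR-15b-3p had 0.49 and 0.18. No difference between host and miRNA was tested.

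The 2 host genes that rose were EIF4A2, an RNA helicase of translation (0.71 ± 0.16, adjusted p = 0.0332), and EML2, a microtubule-associated protein (0.89 ± 0.21, adjusted p = 0.0413). EML2 was at 4.90, 8.62 and 14.9 RPKM in control and at 11.2, 20.5 and 19.3 RPKM in CAF medium at 24, 48 and 72 h, higher at each time, with the groups overlapping across times. miR-330-3p, in EML2, had 0.09. Without the 48 h pair all 4 host genes lost the call (limma, adjusted p = 0.16 to 0.333), with differences in the same direction. Without the 24 h pair EML2 (0.149) and SMC4 (0.0686) lost it, and without the 72 h pair SMC4 (0.11) did. Of 107 miRNAs paired with a single listed host by name, 87 lay inside the span of that gene in RefSeq for GRCh38.p14 at all their positions. The other 20 had no matched position (10) or at least 1 copy elsewhere (10). Over the 87, in 47 host genes, host and miRNA differences had the same sign for 49 (56.3%), with the values as deposited.

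Of 22 tested genes that make, export, load or sort miRNAs, 0 were called by limma, against 4.19% of 12206 genes called. DROSHA, the nuclear RNase, was at 29.2, 21.2 and 19.9 RPKM in control and at 20.5, 15.9 and 18.1 RPKM in CAF medium (-0.34 ± 0.14, adjusted p = 0.169). DICER1 was at 5.35, 4.71 and 4.57 RPKM against 5.38, 4.97 and 3.96 RPKM (-0.04 ± 0.13). HNRNPA2B1, an RNA-binding protein known for sorting miRNAs into exosomes, had the smallest p (-0.58 ± 0.17, adjusted p = 0.0748).

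**Figure D5:**
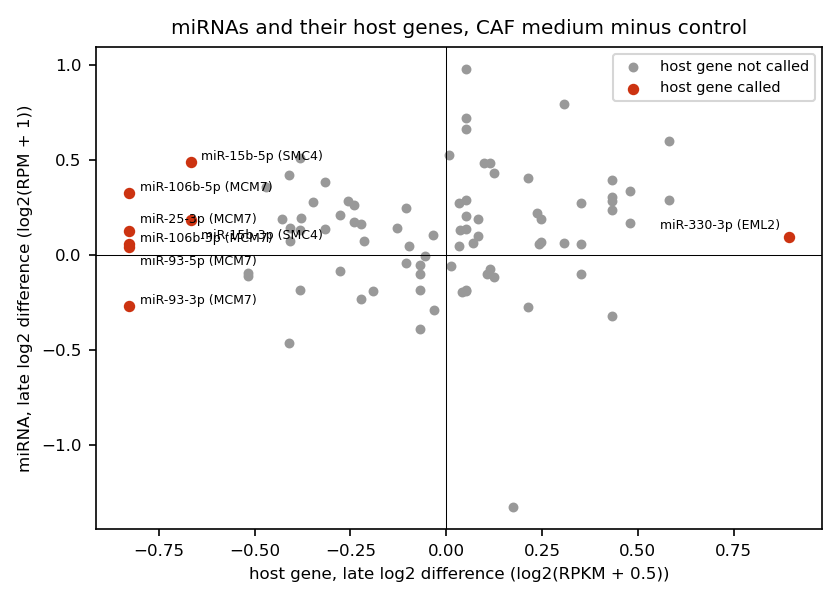
Late log2 difference of each miRNA (vertical axis, log2(RPM + 1)) against that of its host gene (horizontal axis, log2(RPKM + 0.5)), 1 point per miRNA for the 87 miRNAs that lie inside a single listed host gene. Red points are miRNAs in host genes called by limma, and 4 of the 5 miRNAs of MCM7 lie above 0 although MCM7 itself is at -0.83.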

How the data were processed

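Small RNA from 12 A549 libraries was analysed, 6 of them at 24 to 72 h, with 12 mRNA libraries of the same design. The deposited small RNA values, which the labels call TPM, are RPM: the authors scaled them to a common total without length. The mRNA values are RPKM, deposited by the authors. Bowtie, TopHat2, edgeR and hg19 are named in the submitters' processing notes. The annotation of miRNAs is not given in the sources used here. Whole reads were recovered from the RPM steps (100% of low values whole within 0.1 read, 0.868 to 5.77 M reads per library). In R 4.3.3, limma 3.58.1 fitted log2(RPM + 1) with time as a factor, an early and a late medium term, 4 residual degrees of freedom and a mean-variance trend, and log2(RPKM + 0.5) for genes whose mean reached 1 RPKM. Tests were two-sided with Benjamini-Hochberg adjustment at 0.05. The limma fit was also run on simulated reads with large changes only, which does not give its power for smaller differences. Differences on the scale log2(RPM + 1) understate changes of low miRNAs. edgeR 4.0.16 and DESeq2 1.42.0 were run on recovered reads, and other scalings, filters, pseudocounts and left-out pairs were tried. miRNAs named are the 8 with the smallest p in each direction, the 10 most abundant, up to 3 per list of 34 lists, and those past 1 at each late time. A few others (list members shown with their sequences, arms, miRNAs opposite between early and late) were chosen after their values were seen. One host gene is left out and not reported here. Members and lists were chosen with earlier results of these data known.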

Additional observations from a re-analysis of the deposited data

How the results depend on the processing

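The count of miRNAs called, 0 in each direction with limma, was the same under the other pseudocounts, filters, scalings and models, without each pair and with edgeR, and 1 was called as higher with DESeq2. The 16 miRNAs with the smallest p were chosen from these same data, so a kept sign is not support. They gave 273 values under the alternatives, of which 0 reversed and 1 passed the threshold (miR-199a-5p with DESeq2). Of 1571 such values of the 89 other miRNAs chosen by the naming rule, 80 moved by at least the SD over the 3 pairs, and 86, from 26 miRNAs, had the other sign. The 2 host genes called as higher became 0 and the 2 called as lower became 0 without a filter on low RPKM, where 22026 genes were tested (limma, adjusted p = 0.0813 to 0.177). Numbers at an unadjusted limma p under 0.05, 20 higher and 4 lower, were 8 and 9 on the scale of named miRNAs alone, 72 and 83 with no filter on low RPM and 6 and 0 with a mean of at least 50 RPM. Leaving out 1 pair gave 0 to 2 genes called as higher and 0 to 2 as lower among the host and miRNA machinery genes. The 48 h control library, left out after seeing the data, gave the same count of 0 miRNAs called (limma). The time term pairs the media at each time, and without it the count of miRNAs called was also 0 (limma). Depth limits the low miRNAs most: in the shallowest library 1 read is 1.15 RPM.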
